A study of Sus scrofa with 20 samples.

Results

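Uterine gene expression was compared between 15 sows that had been inseminated and 5 sows that had not. All 20 libraries of the series entered the comparison, and their group was read from the labels. The inseminated sows formed 3 groups of 5, which received semen of 3 Pietrain boars made up of different parts of the ejaculate. In FR1 the semen was the rich fraction, in FR2 the rich and intermediate fractions, and in FR3 all of these with the poor fraction added. Semen was given through a post-cervical catheter at estrus onset and again daily while standing estrus lasted. The 5 control sows received none, and the labels describe no mock procedure for them. All sows were crosses of Large White and Landrace. Uterine tissue was taken on day 6, counted from estrus onset. The labels do not say which inseminated sows held embryos, so semen, the procedure and early pregnancy cannot be told apart. The libraries are from whole tissue, where fewer cells of a type and less RNA per cell cannot be told apart either. Each column of the table gives a group and a number but not the sow, and libraries are named here by that group and number.

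A sow ovulates in the later part of estrus, and by the collection day embryos of a pregnant sow are free in the uterine lumen and have not attached. Semen is deposited in the uterus of this species, where seminal plasma and sperm meet the lumen epithelium and leukocytes enter within hours. Over the following days progesterone from the corpora lutea turns the glands secretory, and the stroma takes part through paracrine signals such as hedgehog, Wnt and Notch.

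Library totals ran from 33 to 62.9 M estimated counts in inseminated sows and from 39.9 to 50.9 M in control sows. No pair of libraries was close enough to be 1 library deposited more than once. Control libraries differed more among themselves: the SD of log2 CPM per gene (CPM, a library's counts per 1 M after TMM scaling) had a median of 0.39 over the 15 inseminated libraries and 0.54 over the 5 controls. Of 17745 genes tested, each control lay outside the inseminated range for 25.7% to 37.2%, CONTROL_3 most often. Earlier results of these data set CONTROL_2, CONTROL_3 and CONTROL_4 apart. Leaving them out leaves 2 controls, and for most genes named below a call that ends in that fit is stated. With 2 controls a call can end although the fitted change is as large, as for WNT4 below.

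Of the 17745 genes, 1965 (11.1%) were called at a Benjamini-Hochberg adjusted p below 0.05 by edgeR's quasi-likelihood test. They comprised 510 higher (2.87%) and 1455 lower (8.20%) in inseminated sows. Without CONTROL_2, CONTROL_3 and CONTROL_4 the count was 523 genes, 142 higher and 381 lower. Lower calls outnumbered higher ones with TMM factors, at 26% higher, but the split was 37.5% higher with library totals alone. By limma-voom 46.7% of the calls were higher and by an exact rank-sum test 50%, so the excess of lower calls was not a feature of every method. Among the 1455 lower calls, 36 had all 5 controls above the inseminated range, 324 had 4 above and 505 had 3 above. Among the 510 higher calls, 47 had all 5 controls below it, 186 had 4 below and 160 had 3 below.

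A stricter pattern was that all 5 controls lay on 1 side of all 15 inseminated libraries. It held for 47 genes with every control below (0.265% of those tested) and for 36 with every control above (0.203%). All 83 were also called, which is no separate evidence because the pattern and the test read the same values. On the log2 scale the fitted changes ran from 0.42 to 4.05 for the first set, with a median of 1.25. In the second set they ran from -7.35 to -0.33, with a median of -0.76. The step between the nearest control and the nearest inseminated library was small for most: its median was 0.10 and 0.09 in log2(CPM + 0.5), and it reached 0.5 in 6 of the 47 and 0 of the 36. Of the 83, 45 kept all controls on 1 side under both relative log expression factors and library totals. Without CONTROL_3 73 of the 83 were still called in the same direction, and without CONTROL_2, CONTROL_3 and CONTROL_4 34 were. By limma-voom with a separate spread for inseminated and control libraries 39 of the 83 were called. Of the one-sided genes described below, that fit ended the calls of FREM1 (adjusted p = 0.0545), WNK3 (0.0527), SNCAIP (0.131), GLI1 (0.094) and ERN2 (0.131). It also ended those of PTCH1, CXCR4, RNF43, TET1, KDM5B, EXTL1, PLOD1, HID1, ERGIC1, TBC1D24, ELMOD3, IGSF5, EPCAM, RBM3, GPR27, CLIC1 and PTMA. A gene named below as depending on the scaling is one of the other 38.

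The widest step belonged to TRIL, a membrane protein that assists Toll-like receptors in human cells. The lowest, median and highest inseminated library had 9.07, 26.8 and 43.8 CPM, against 1.65, 2.53, 0.183, 0.671 and 4.28 CPM in CONTROL_1 to CONTROL_5. No control came within a factor of 2 of any inseminated library, and FR3 held both of the lowest inseminated values. The log2 fold change was 3.82 ± 0.55 (SE, edgeR adjusted p = 0.000258). ACPP encodes prostatic acid phosphatase, which also acts on lipid and nucleotide phosphates. It had 5.35, 9.94 and 17.6 CPM at those points of the inseminated range, against 0.147, 0.664, 1.33, 0.985 and 2.55 CPM in controls (log2 3.18 ± 0.46, edgeR adjusted p = 0.000272).

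FREM1, an extracellular protein of the Fraser complex that anchors epithelial basement membranes, was at 2.03, 6.68 and 12.8 CPM in inseminated sows. Controls had 0.168, 1.099, 0.298, 0.273 and 0.949 CPM (log2 3.54 ± 0.50, edgeR adjusted p = 0.000246). WNK3, a kinase that controls chloride cotransporters, ranged from 3.94 to 9.38 CPM, against 0.185 to 2.43 CPM in controls. SNCAIP, which encodes synphilin-1, ranged from 4.19 to 29.6 CPM in inseminated sows and from 1.19 to 2.60 CPM in controls. The steps of both were nearly equal, at 0.60 in log2(CPM + 0.5), and the inseminated library nearest the controls was from FR3 in each. Their fold changes were 2.03 ± 0.41 and 3.08 ± 0.44 on the log2 scale (SE, edgeR adjusted p = 0.0035 and 0.000246). These 5 genes kept all controls below under each scaling. Without CONTROL_2, CONTROL_3 and CONTROL_4 all but WNK3 were still called, and WNK3 was at 2.12 with adjusted p = 0.0768.

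**Figure D1:**
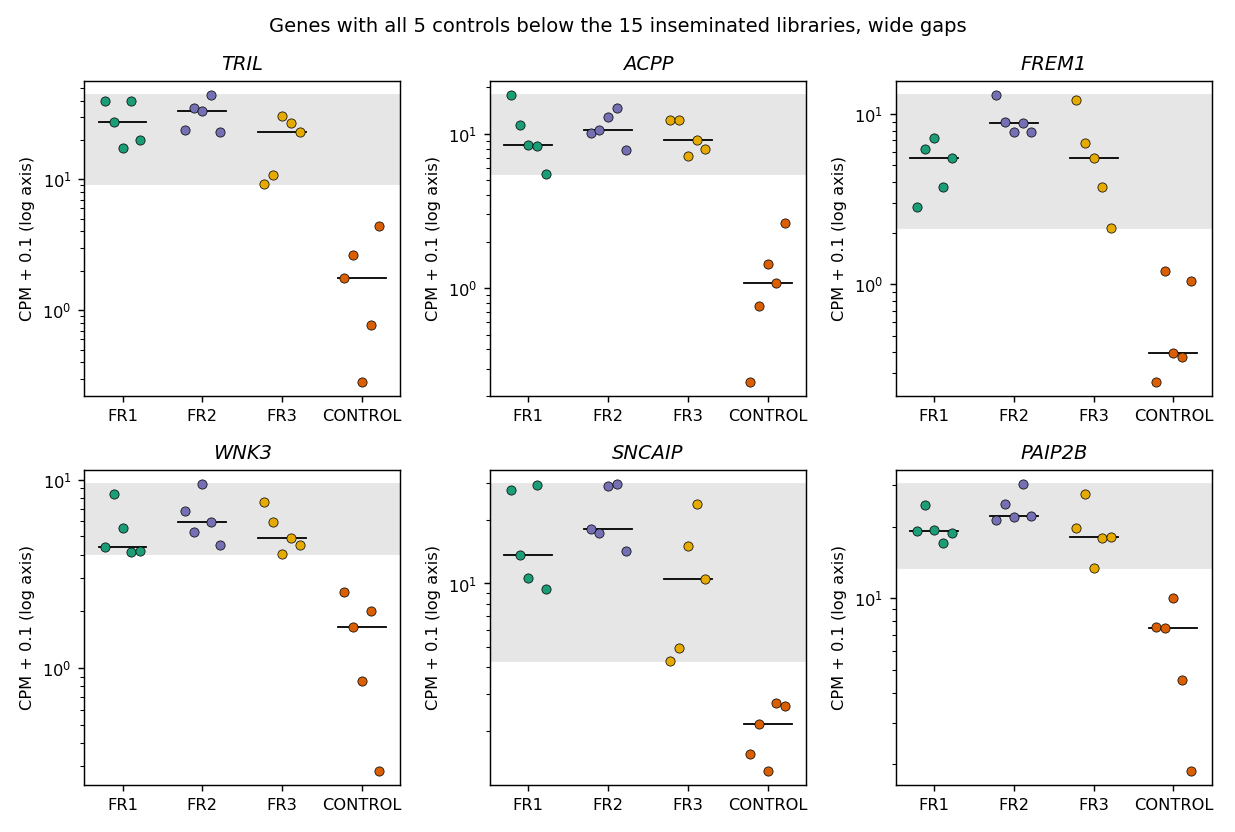
CPM + 0.1 on a log axis for 6 genes with a wide step between controls and inseminated libraries among those with every control below. Each point is 1 library, lines are group medians, and the grey band is the range of the 15 inseminated libraries. In each panel the 5 control points lie under the band, and for TRIL they sit between 0.183 and 4.28 CPM with the band starting at 9.07 CPM.

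Several signalling genes were among those with every control below. HEYL, a repressor induced by Notch, ranged from 13.8 to 37.8 CPM in inseminated sows and from 3.14 to 10.7 CPM in controls, a log2 difference of 1.71 ± 0.27 (SE, edgeR adjusted p = 0.000449). GLI1 is both a transcription factor and a target of hedgehog signalling. Its range was 7.10 to 35.8 CPM, against 0.734 to 5.80 CPM in controls (2.69 ± 0.46, adjusted p = 0.000972). PTCH1, the hedgehog receptor and likewise a target, ranged from 35.3 to 85.5 CPM, against 17.3 to 33.6 CPM (1.05 ± 0.22, adjusted p = 0.00376). CXCR4, the receptor of the chemokine CXCL12, ranged from 5.25 to 15.6 CPM, against 1.58 to 5.01 CPM (1.58 ± 0.29). PLCB4, a phospholipase that acts downstream of Gq-coupled receptors, ranged from 55.7 to 142 CPM, against 16.1 to 46.1 CPM (1.45 ± 0.26). MRAS, a small GTPase of the RAS family, ranged from 17.1 to 42.5 CPM, against 6.26 to 15.4 CPM (1.19 ± 0.20). RNF43, a ubiquitin ligase that removes Wnt receptors, ranged from 24.3 to 37.4 CPM, against 7.82 to 22.5 CPM (0.73 ± 0.17). Each of these was called, and all except PTCH1 kept the step under both other scalings. The calls of CXCR4 and RNF43 ended when CONTROL_2, CONTROL_3 and CONTROL_4 were left out. CXCR4 and RNF43, and below NFIA, NCOA1, KDM5B, ERN2, PLOD1, HID1, ERGIC1, ATP6V0D2, GPR27, CLIC1 and PTMA, were picked from the 83 after their values were seen.

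Regulators of transcription and chromatin were also among the 47, with small steps that depended on the scaling. TET1, an enzyme that oxidises methylcytosine, ranged from 2.13 to 6.01 CPM in inseminated sows and from 0.436 to 1.803 CPM in controls (log2 1.71 ± 0.34, edgeR adjusted p = 0.00333). NFIA, a transcription factor, was at 1.28 ± 0.24. Smaller differences were seen for NCOA1, a coactivator of steroid receptors, at 0.75 ± 0.14, and for PHF20, a reader in a histone acetyltransferase complex, at 0.74 ± 0.13. ZNF516, a zinc finger protein, was at 0.72 ± 0.13 and KDM5B, a histone H3K4 demethylase, at 0.45 ± 0.10. All 6 lost the strict step under at least 1 other scaling, though each was called by edgeR with all libraries. NFIA, NCOA1, PHF20 and KDM5B were not called when CONTROL_2, CONTROL_3 and CONTROL_4 were left out. KDM5B shows how small such a step can be, with 121 CPM in the lowest inseminated library and 119 CPM in CONTROL_2.

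The 47 also held genes of translation, secretion and matrix. PAIP2B, an inhibitor of poly(A)-binding protein, ranged from 13.3 to 30.1 CPM in inseminated sows and from 1.78 to 9.88 CPM in controls (log2 1.75 ± 0.28, edgeR adjusted p = 0.000521). PRR16, which promotes translation and cell size in human cells, ranged from 11.4 to 22.5 CPM, against 4.20 to 10.1 CPM (1.42 ± 0.21, adjusted p = 0.00029). ERN2, the epithelial form of the stress sensor IRE1, ranged from 0.957 to 10.1 CPM, against 0 to 0.922 CPM. It lost the strict step with library totals. Its fitted change was the largest of the 47, at 4.05 ± 0.86, and CONTROL_4 was its highest control: without that library the change was 5.34 ± 0.93. PLOD1, a lysyl hydroxylase of collagen, ranged from 65.1 to 186 CPM, against 30.4 to 62.7 CPM (1.08 ± 0.24). EXTL1, a glycosyltransferase of heparan sulfate synthesis, was at 2.22 ± 0.44, and HID1 and ERGIC1 of the secretory pathway were both at 0.70, with SE 0.15 and 0.14. ATP6V0D2, a proton pump subunit, ranged from 167 to 310 CPM, against 113, 59.6, 13.5, 4.32 and 158 CPM in controls. Its spread lay almost wholly in the controls, and its call (1.59 ± 0.50, edgeR adjusted p = 0.0452) was lost in 16 of 20 fits that left out 1 library. PPM1H, MEGF9, RWDD2A, TBC1D24 and ELMOD3 rose by log2 1.099, 1.00, 0.96, 0.78 and 0.53, and of these MEGF9 and ELMOD3 depended on the scaling. EXTL1, PLOD1, HID1, ERGIC1, ATP6V0D2, PPM1H, TBC1D24 and ELMOD3 were not called with CONTROL_2, CONTROL_3 and CONTROL_4 left out.

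The set with every control above was led by GADD45A, a growth arrest gene induced by stress. The lowest, median and highest inseminated library had 11.6, 19.6 and 25.2 CPM, against 42.4, 41.2, 117, 235 and 35.6 CPM in CONTROL_1 to CONTROL_5. Even the lowest control exceeded the highest inseminated library, while CONTROL_3 and CONTROL_4 stood far above the rest. The log2 fold change was -2.30 ± 0.30 (SE, edgeR adjusted p = 0.000173), and -1.61 ± 0.25 without CONTROL_4. FXYD3, a small epithelial regulator of the sodium pump, had 0, 0.436 and 1.67 CPM at the lowest, median and highest inseminated library. In controls it was at 11.0, 46.3, 256, 42.2 and 2.52 CPM. All 5 controls were above, with CONTROL_3 far over the others and CONTROL_5 close to the inseminated sows. The fitted change of -7.35 ± 0.74 (edgeR adjusted p = 4.73e-05) was -5.88 without CONTROL_3 and -3.92 without CONTROL_2, CONTROL_3 and CONTROL_4, still called. IGSF5, a junctional adhesion protein, ranged up to 15.3 CPM with a median of 9.74 CPM, against 19.4, 27.0, 66.9, 23.3 and 21.5 CPM in controls. It was listed at 0 in FR1_1 alone, and its call (-1.88 ± 0.53, edgeR adjusted p = 0.026) was lost without CONTROL_3, at -1.41 with adjusted p = 0.158. The call was also lost without CONTROL_2, CONTROL_3 and CONTROL_4, at -1.23 (edgeR adjusted p = 0.401).

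SLC37A1, a glucose 6-phosphate transporter of the endoplasmic reticulum, had 33.6, 44.2 and 53.2 CPM at the lowest, median and highest inseminated library. Controls were at 66.9, 108, 191, 78.2 and 69.0 CPM (log2 -1.25 ± 0.18, edgeR adjusted p = 0.000261). PRR15, a proline-rich protein, ranged from 4.00 to 13.1 CPM, against 16.4 to 167 CPM in controls (-2.85 ± 0.35). Without CONTROL_4, its highest library, it was at -1.98 ± 0.27. PHLDA2, an imprinted growth regulator in mouse placenta, ranged from 4.40 to 12.8 CPM, against 16.5, 57.3, 270, 52.3 and 13.1 CPM (-3.51 ± 0.42, and -2.29 ± 0.30 without CONTROL_3). SERPINF2, the plasmin inhibitor, ranged up to 0.651 CPM, against 0.715 to 6.02 CPM (-3.02 ± 0.54, and -2.05 ± 0.55 without CONTROL_4). GPR27, an orphan receptor, ranged from 12.9 to 23.5 CPM in inseminated sows, against 177 CPM in CONTROL_3 and 25.7 to 33.9 CPM in the remaining controls. Its change was -1.60 ± 0.31 with that library and -0.60 ± 0.15 without it. PHLDA2, SERPINF2 and GPR27 lost the strict step under at least 1 other scaling. The calls of 4 of these genes ended without CONTROL_2, CONTROL_3 and CONTROL_4: PHLDA2 was at -1.02 (edgeR adjusted p = 0.0763), PRR15 at -1.14 (0.0537), SERPINF2 at -1.87 (0.182) and GPR27 at -0.46 (0.246).

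**Figure D2:**
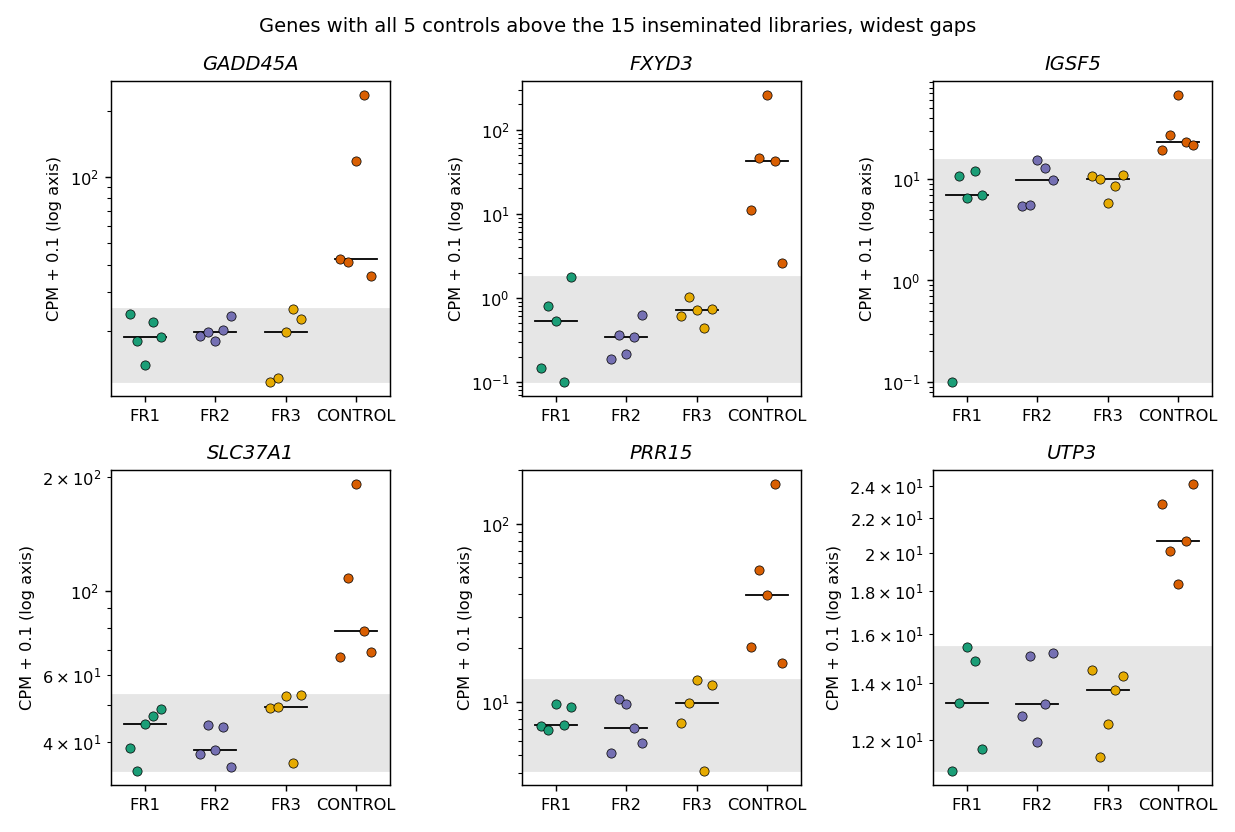
CPM + 0.1 on a log axis for the 6 genes with the widest step among those with every control above, with points, lines and grey band as for the higher genes. The control points lie over the band in all panels, and in GADD45A they run from 35.6 to 235 CPM over a band that ends at 25.2 CPM. The IGSF5 point at the bottom is FR1_1, listed at 0.

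KRT18, a keratin of simple epithelia, also had every control above. It ranged from 99.1 to 236 CPM in inseminated sows and from 251 to 491 CPM in controls (log2 -1.25 ± 0.17, edgeR adjusted p = 0.000175). EPCAM, an epithelial adhesion molecule, ranged from 128 to 244 CPM, against 253 to 553 CPM (-0.92 ± 0.17). TAGLN2, an actin-binding protein, ranged from 95.9 to 236 CPM, against 276 to 497 CPM (-1.37 ± 0.19). S100A1, a calcium-binding protein, ranged from 34.2 to 101 CPM, against 111 to 276 CPM (-1.54 ± 0.20). PRR5, a subunit of the kinase complex mTORC2, ranged from 12.4 to 22.1 CPM, against 24.3 to 57.6 CPM (-1.39 ± 0.17). All 5 were called and kept the step under both other scalings, but TAGLN2 was not called without CONTROL_2, CONTROL_3 and CONTROL_4 (-0.93, adjusted p = 0.0681). CLIC1, an intracellular chloride channel protein, was at -0.69 ± 0.20, depended on the scaling and lost its call in 4 of 20 fits that left out 1 library. Without CONTROL_2, CONTROL_3 and CONTROL_4 CLIC1 was at -0.78 and not called (edgeR adjusted p = 0.185).

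Genes of protein folding, ribosome assembly and RNA handling lay lower by less than 2-fold. CALR, the lectin chaperone calreticulin, ranged from 403 to 599 CPM in inseminated sows and from 695 to 969 CPM in controls (log2 -0.70 ± 0.11, edgeR adjusted p = 0.000408). HSP90B1, the chaperone GRP94, ranged from 319 to 475 CPM, against 492 to 759 CPM (-0.71 ± 0.11). LMAN2, a cargo lectin, was at -0.66 ± 0.11. UTP3 and BOP1, which process ribosomal RNA, were at -0.67 ± 0.11 and -0.65 ± 0.10, and MRPS25 of the mitochondrial ribosome was at -0.80 ± 0.12. RBM3, a cold-inducible RNA-binding protein, ranged from 32.4 to 72.9 CPM, against 81.5 to 147 CPM (-0.96 ± 0.17). RNH1, the ribonuclease inhibitor, ranged from 141 to 235 CPM, against 260 to 403 CPM (-0.87 ± 0.13). TP53I13 was at -0.90 ± 0.16 and PTMA, the nuclear protein prothymosin alpha, at -0.62 ± 0.15. HSP90B1, UTP3, BOP1, MRPS25 and PTMA depended on the scaling. PTMA was not called without CONTROL_4 (-0.49, edgeR adjusted p = 0.081). HSP90B1 and BOP1, like PTMA, were not called with CONTROL_2, CONTROL_3 and CONTROL_4 left out.

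A larger number of genes, 190 (1.07% of those tested), had all 5 controls outside the inseminated range with some above and some below it, and with the 83 they made 273 (1.54%). This pattern itself requires the controls to span more than the inseminated libraries. For these genes the SD of log2 CPM had a median of 0.28 over inseminated libraries and 0.95 over controls. Over all genes those medians were 0.39 and 0.54. Of the 190, 37 were called lower and 0 higher by edgeR, against 8.20% and 2.87% of all genes. At an unadjusted p below 0.05 they were 61 and 9. Those numbers depended on the test: DESeq2 called 49 lower and 1 higher, and limma-voom 11 lower and 14 higher. By edgeR 22 were lower and 3 higher without CONTROL_3, and 7 and 9 without CONTROL_2, CONTROL_3 and CONTROL_4. SLC34A2, a phosphate cotransporter of secretory epithelia, had 5.95, 29.3 and 58.5 CPM at the lowest, median and highest inseminated library. Its controls were at 179, 0.741, 0, 198 and 2.62 CPM. CONTROL_1 and CONTROL_4 thus lay well above all inseminated sows and the other controls below, and the test did not pass (log2 -1.29 ± 0.87, edgeR adjusted p = 0.376). IGFBP2, which binds insulin-like growth factors, ranged from 10.1 to 38.1 CPM, against 220, 6.52, 308, 788 and 9.49 CPM. It was called at -4.08 ± 0.58 (edgeR adjusted p = 0.000246) although CONTROL_2 and CONTROL_5 lay below every inseminated library, and without CONTROL_4 it was at -3.09 ± 0.54. By limma-voom IGFBP2 was at -2.42 and not called (adjusted p = 0.0771), nor was it called with a spread per group (0.117).

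CRABP2, a retinoic acid carrier, ranged from 1.75 to 7.25 CPM in inseminated sows, against 12.8, 0.358, 0, 19.1 and 0.278 CPM in controls. C1QTNF6, a secreted protein of the complement C1q family, ranged from 1.45 to 6.78 CPM, against 1.36, 0.434, 0, 32.7 and 0.671 CPM. In C1QTNF6 CONTROL_4 alone was above, and the sign turned without it: -0.86 ± 0.79 with all controls and 2.66 ± 0.66 without CONTROL_4 (edgeR adjusted p = 0.538 and 0.0169). DISP3, a patched-related membrane protein, ranged from 3.13 to 38.1 CPM, against 107 and 94.3 CPM in CONTROL_2 and CONTROL_5 and 0.147 to 1.49 CPM in the others. SOWAHC, an ankyrin repeat protein, ranged from 7.42 to 16.7 CPM, against 65.8, 49.3 and 108 CPM in CONTROL_1 to CONTROL_3 and 4.65 and 5.33 CPM in the other pair. CRABP2 and DISP3 did not pass, at -0.94 ± 0.76 and -1.87 ± 0.83, and SOWAHC was called at -1.87 ± 0.43 but not without CONTROL_3 (-1.28, adjusted p = 0.0861), nor without CONTROL_2, CONTROL_3 and CONTROL_4. By limma-voom SOWAHC was at -0.97 and not called (adjusted p = 0.293), nor was it called with a spread per group (0.414). Which controls stood high differed from gene to gene.

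**Figure D3:**
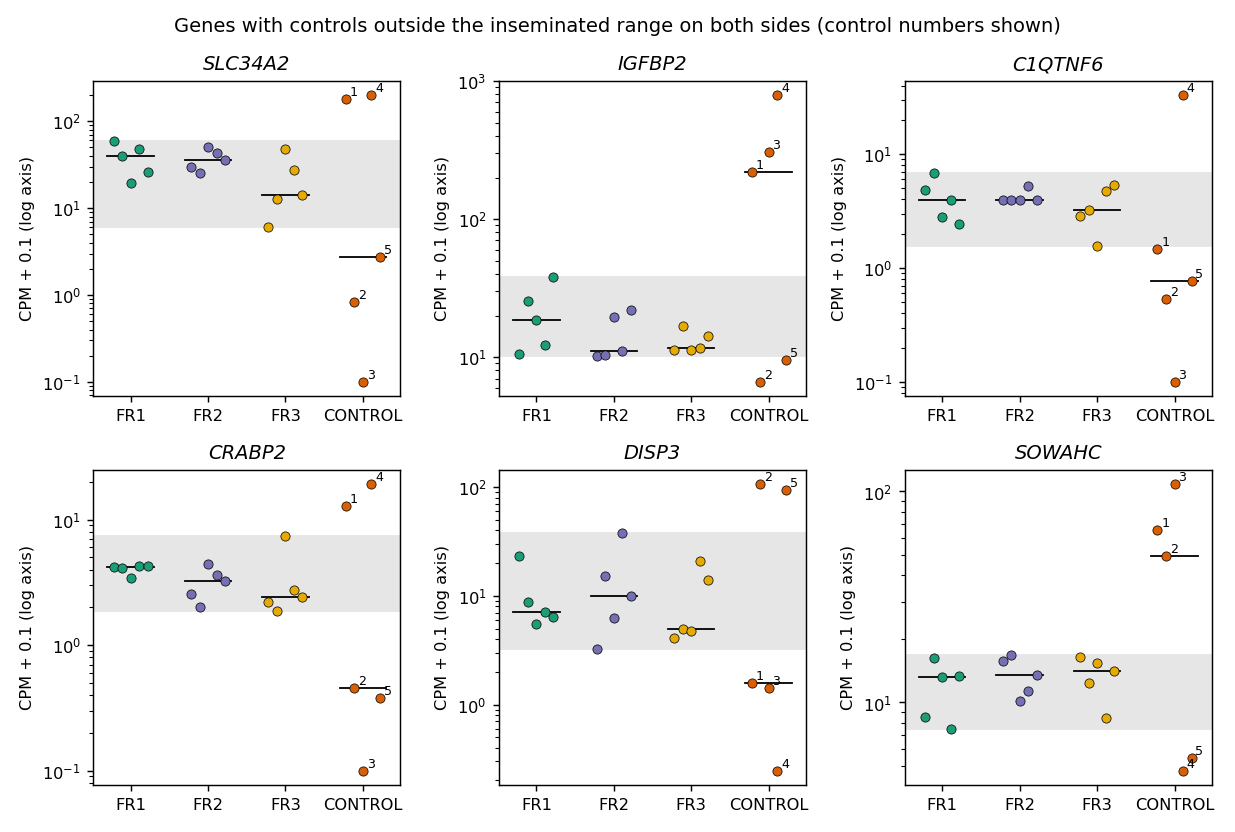
CPM + 0.1 on a log axis for the 6 genes with the widest summed steps among those with controls on both sides of the inseminated range; control points carry their column number. Each point is 1 library, lines are group medians and the band is the range of the 15 inseminated libraries. In SLC34A2 CONTROL_1 and CONTROL_4 sit above the band and the other controls below it.

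The most frequent pattern among these was CONTROL_5 below the inseminated range and the other 4 controls above it, in 43 of the 190 genes (22.6%). With 4 controls high by the pattern itself, a lower call is no separate evidence. Of these 43 genes 26 were called lower, against 8.20% of all genes. TICAM1, the adaptor of Toll-like receptors 3 and 4, was one: it ranged from 9.20 to 20.0 CPM in inseminated sows, against 33.3, 35.98, 39.3, 42.8 and 6.74 CPM in CONTROL_1 to CONTROL_5. With CONTROL_2, CONTROL_3 and CONTROL_4 left out it was at -0.54 and not called (edgeR adjusted p = 0.407). MAML2, a coactivator of Notch, had 19.2 to 38.2 CPM in inseminated sows and 40.1, 54.5, 48.8, 39.7 and 16.9 CPM in controls. Its change of -0.59 ± 0.20 was not called with all controls (edgeR adjusted p = 0.06) and was called without CONTROL_5 (-0.78, adjusted p = 0.0012). In the next most frequent patterns CONTROL_1 alone was above in 31 genes and CONTROL_5 alone was above in 27.

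CONTROL_5 was also the library that most often kept a gene out of the one-sided sets. It was the sole control not above the inseminated range in 216 genes, and the sole control not below it in 176. For CONTROL_3 those numbers were 11 and 10. Without CONTROL_5 the sets grew to 235 genes with all remaining controls above and 238 with all below. Without CONTROL_1 they were 96 and 162 genes, without CONTROL_2 91 and 110, and without CONTROL_4 the set below was 80. Fewer controls make the pattern easier to meet, so part of each growth is by construction.

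**Figure D4:**
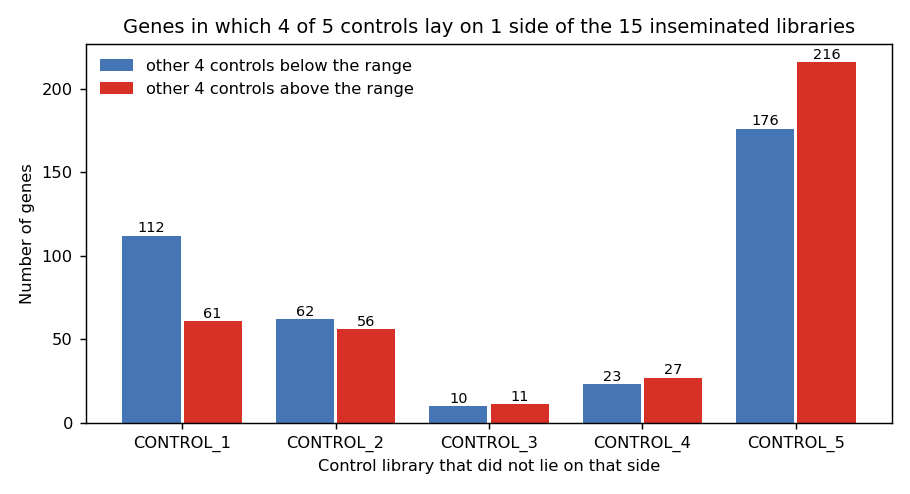
Number of genes in which 4 controls lay below (blue) or above (red) all 15 inseminated libraries and the control named on the horizontal axis did not. CONTROL_5 was the exception in 176 and 216 genes, CONTROL_3 in 10 and 11.

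The 83 genes were also compared among the semen groups. For a difference among FR1, FR2 and FR3 edgeR called 0 of 17745 genes (0.00%), with 933 at an unadjusted p below 0.05. DESeq2 called 26 genes and limma-voom 0. Among the 83 the lowest edgeR adjusted p was 0.919, and 4 of the 47 and 2 of the 36 had an unadjusted p below 0.05. The highest of the 3 group means exceeded the lowest by a median of 1.21 times in the 47 and 1.17 times in the 36. KRT18 averaged 186 ± 49.6 CPM in FR3, 126 ± 21.7 CPM in FR2 and 134 ± 27.5 CPM in FR1 (SD, n = 5 each), with edgeR adjusted p = 0.919 for the difference. S100A1 averaged 82.9 ± 19.9, 54.0 ± 12.7 and 52.7 ± 20.7 CPM in the same order. ELMOD3, a regulator of ARF GTPases, had the lowest unadjusted p of the 83, 0.0139, with 59.9 ± 11.1 CPM in FR3, 45.0 ± 1.90 CPM in FR2 and 48.4 ± 2.68 CPM in FR1. A p that misses the threshold does not show that the semen groups were alike.

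The pathways of the leading genes were read through whole gene lists, described by counts and medians. A list's count includes the leading gene that prompted it, such as GLI1, HEYL, FREM1, TRIL, FXYD3 or KRT18. It is thus no separate evidence for the pathway. Limma-voom with a spread per group ended the calls of many list members. Among them were GLI3, DTX1, HEY1, DLL4, HES1, LGR5, WNT4, LRP5, ZNRF3, DKK3, LAMB3, LAMA5, LAMA2, NID1, TLR4, TICAM1, CD14 and ATP1B3. The others were HRAS, EIF4EBP1, EIF4E3, EIF4EBP2, CLDN7, ST14, PDGFRA, TWIST2, XBP1, CSF3R, JCHAIN, JUNB, IER3, HSPA6 and DNAJB1, beside the one-sided genes given above. Over all genes tested the median log2 fold change was -0.05. In the hedgehog pathway 3 of 19 genes tested were higher and 0 lower, against 2.87% and 8.20% of all genes. At an unadjusted p below 0.05 these were 7 and 0, and DESeq2 and limma-voom each called 6 and 0. Here and elsewhere, counts of these 3 kinds stand without the share of all genes so called. The edgeR shares do not apply to them. Over all genes, too, fewer calls were made without CONTROL_2, CONTROL_3 and CONTROL_4, so a fall there is not by itself particular to a list. In that fit the hedgehog list had 3 higher and 0 lower, but not the same genes. The list's median was 0.48, and 17 of 19 had a positive change. GLI3, a second transcription factor of the pathway, was called beside GLI1 and PTCH1, at 0.82 ± 0.26 (edgeR adjusted p = 0.0479), and lost its call in 16 of 20 fits that left out 1 library. SUFU, the inhibitor that binds GLI proteins, did not pass at 0.46 ± 0.15 (adjusted p = 0.0529). In the fit without those 3 controls SUFU was called, at 0.85 (adjusted p = 0.0206), and GLI3 was not, at 0.85 (adjusted p = 0.226). Summed over the list, inseminated libraries had 455 to 799 CPM and controls 300.2 to 538 CPM.

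In the Notch pathway 3 of 24 genes were higher and 3 lower, with a median of 0.01. They became 2 (HEYL and DTX1) and 0 without CONTROL_2, CONTROL_3 and CONTROL_4. The receptor NOTCH1 was at 0.90 ± 0.18 and the ubiquitin ligase DTX1 at 1.49 ± 0.28, beside the target HEYL (edgeR adjusted p = 0.00387 for NOTCH1 and 0.00218 for DTX1). The targets HEY1 and HES1 were lower, at -1.31 ± 0.28 and -1.66 ± 0.37, as was the ligand DLL4, at -1.71 ± 0.38. HES1 was not called without CONTROL_4 (-0.80, adjusted p = 0.126) nor DLL4 without CONTROL_2 (-0.77, adjusted p = 0.111). DLL4 ranged from 9.35 to 26.8 CPM in inseminated sows, against 157 CPM in CONTROL_2 and 10.5 to 57.2 CPM in the remaining controls.

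In the Wnt pathway 4 of 34 genes were higher and 1 lower, with a median of 0.21, but only the lower one was called without CONTROL_2, CONTROL_3 and CONTROL_4. WNT4, a ligand of the progestational uterus in mice, ranged from 0.505 to 2.71 CPM in inseminated sows, against 0.0209 to 0.650 CPM in controls (2.27 ± 0.55, edgeR adjusted p = 0.0118). The coreceptor LRP5 was at 0.67 ± 0.20, the receptor-removing ligase ZNRF3 at 0.51 ± 0.15 and DKK3, of the Dickkopf family, at 1.37 ± 0.42. These 3 lost their calls in 3, 7 and 10 of the 20 fits that left out 1 library. Without CONTROL_2, CONTROL_3 and CONTROL_4 the changes of WNT4 and DKK3 were larger, at 2.83 and 2.19 (edgeR adjusted p = 0.0806 and 0.0719). Those of LRP5 and ZNRF3 were smaller in that fit, at 0.38 and 0.37. LGR5, an R-spondin receptor of epithelial progenitors, was lower at -4.87 ± 0.96, with 0 to 4.44 CPM in inseminated sows and 37.5, 5.75, 0.825, 51.0 and 0.116 CPM in controls. The groups overlapped for LGR5, and without CONTROL_4 it was at -4.07 ± 0.98. By limma-voom LGR5 was at -3.95 and not called (adjusted p = 0.0947), nor was it called with a spread per group (0.141).

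Among Fraser complex and basement membrane genes 3 of 31 were higher and 4 lower, with a median of -0.05, which became 1 (FREM1) and 1 (COL17A1) without CONTROL_2, CONTROL_3 and CONTROL_4. Beside FREM1, the laminin chain LAMA2 and the linker NID1 were higher, at 1.02 ± 0.30 and 1.03 ± 0.32 (edgeR adjusted p = 0.0326 and 0.0449). They lost their calls in 3 and 15 of 20 fits without 1 library. Without CONTROL_2, CONTROL_3 and CONTROL_4 they were at 1.09 and 1.57, not called (edgeR adjusted p = 0.149 and 0.051). Lower genes included the hemidesmosomal collagen COL17A1 at -7.27 ± 0.79 and the laminin chain LAMB3 at -4.68 ± 0.63. LAMA5 was at -1.01 ± 0.28. Without CONTROL_4 COL17A1 and LAMB3 were at -5.57 and -4.08. With CONTROL_2, CONTROL_3 and CONTROL_4 all left out COL17A1 was at -2.65 (edgeR adjusted p = 0.0319), and LAMB3 was at -0.68 and not called (adjusted p = 0.475). LAMA5 lost its call without CONTROL_3 and without CONTROL_4, at -0.66 and -0.97.

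In Toll-like receptor signalling TRIL was the 1 gene of 23 that was higher, and 3 were lower, with a median of -0.08. TRIL alone was called without CONTROL_2, CONTROL_3 and CONTROL_4. TLR4, the receptor TRIL assists, ranged from 1.49 to 6.82 CPM in inseminated sows, against 1.76, 42.3, 94.9, 11.8 and 0.949 CPM in controls (-3.02 ± 0.57, edgeR adjusted p = 0.00208). TLR4 overlapped between the groups, was at -1.92 ± 0.54 without CONTROL_3 and turned to 1.49 without CONTROL_2, CONTROL_3 and CONTROL_4, where it was not called (adjusted p = 0.108). The coreceptor CD14 ranged from 2.39 to 6.39 CPM in inseminated sows, against 57.8 CPM in CONTROL_3 and 2.72 to 5.30 CPM in the remaining controls. Its change of -1.80 ± 0.47 was 0.05 ± 0.25 without that library.

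Among FXYD proteins and sodium pump subunits 1 of 11 was higher and 3 lower, with a median of -0.60, or 0 and 2 without CONTROL_2, CONTROL_3 and CONTROL_4. FXYD2, the gamma regulator, was at -5.57 ± 0.80 with all controls and -3.82 ± 0.74 without CONTROL_3. ATP1B3, a beta subunit, was at -0.72 ± 0.14, and at -0.61 without those 3 controls, where it was not called (adjusted p = 0.0763). In the RAS family MRAS was the 1 higher gene of 19, and RRAS2 and HRAS were lower at -0.93 ± 0.17 and -0.52 ± 0.17, HRAS losing its call in 15 of 20 fits that left out 1 library. Neither lower gene was called without CONTROL_2, CONTROL_3 and CONTROL_4, at -0.53 for RRAS2 and -0.51 for HRAS. Of 18 regulators of poly(A) and cap binding 3 were higher and 2 lower, or 2 and 0 without CONTROL_2, CONTROL_3 and CONTROL_4. Here EIF4EBP1, a repressor of the cap-binding factor, was at -1.27 ± 0.25, while its relative EIF4EBP2 was at 0.52 ± 0.16 and lost its call in 14 of 20 fits. Without those 3 controls EIF4EBP1 and EIF4EBP2 were at -0.61 and 0.35, not called (edgeR adjusted p = 0.259 and 0.434). EIF4E3 was at -1.23 ± 0.34, but -0.29 without CONTROL_3, where it was not called. Of 7 simple epithelial keratins KRT18 was the 1 called. Its partner KRT8 ranged from 447 to 2328 CPM in inseminated sows, against 708 to 3254 CPM in controls, and did not pass (-0.46 ± 0.37, edgeR adjusted p = 0.463).

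In the list of endoplasmic reticulum folding and secretion 9 of 23 genes were lower and 1 higher, with a median of -0.42. HSPA5, the chaperone BiP, ranged from 249 to 430 CPM in inseminated sows, against 624, 742, 593, 751 and 397 CPM in controls (log2 -0.91 ± 0.13, edgeR adjusted p = 0.000246). HERPUD1 and DNAJB11 were at -0.81 ± 0.13 and -0.73 ± 0.12. In each of these 3 genes 1 control fell within the inseminated range, CONTROL_5 for HSPA5 and DNAJB11 and CONTROL_1 for HERPUD1. Of the 23 genes 4 were lower without CONTROL_2, CONTROL_3 and CONTROL_4, and HSPA5 (-0.60, adjusted p = 0.0513) and HERPUD1 (-0.30, adjusted p = 0.271) were not among them. XBP1, the transcription factor whose messenger IRE1 proteins splice, was the higher one, at 0.60 ± 0.19, and lost its call in 15 of 20 fits that left out 1 library. With CONTROL_2, CONTROL_3 and CONTROL_4 left out XBP1 was at 0.36 and not called (edgeR adjusted p = 0.506).

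**Figure D5:**
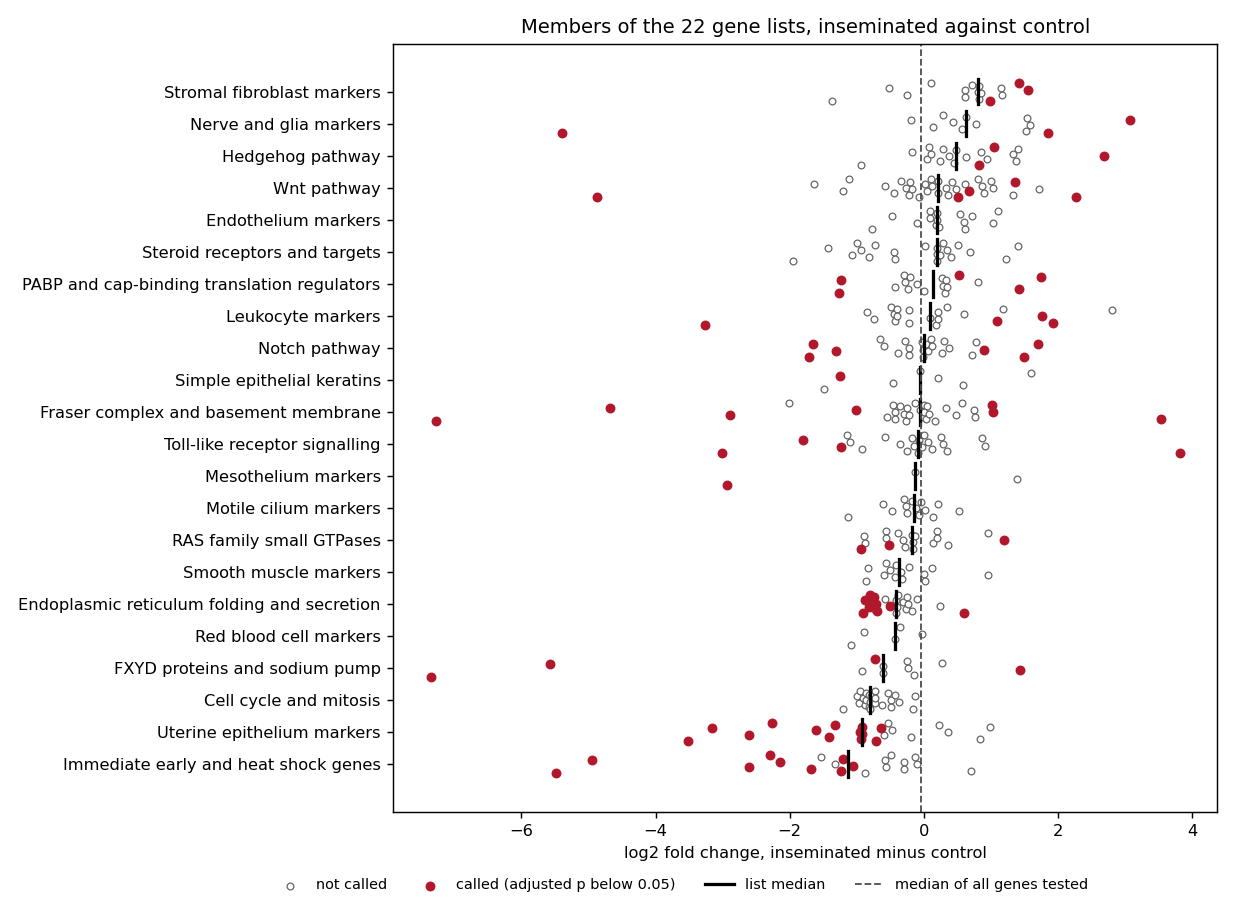
Fitted log2 fold change, inseminated minus control, of each tested member of the 22 gene lists. Filled points were called at an edgeR adjusted p below 0.05, open points were not, bars are list medians and the dashed line is the median of all genes, -0.05. List medians run from -1.13 for immediate early and heat shock genes to 0.81 for stromal fibroblast markers.

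By edgeR the marker lists of epithelium and stroma held called genes, and those of muscle, endothelium and motile cilia did not. Of 21 uterine epithelium markers 13 were lower and 0 higher, with a median of -0.92. Their summed level was 1890 to 4734 CPM in inseminated libraries and 4236 to 9597 CPM in controls, and 3 controls lay within the inseminated range. Only 3 of the 21 were lower without CONTROL_2, CONTROL_3 and CONTROL_4, and 8 without CONTROL_3 alone. Among them CLDN7, a tight junction protein, was at -0.92 ± 0.17 and ST14, a membrane protease, at -1.61 ± 0.30. At an unadjusted p below 0.05 the list had 15 lower and 2 higher, and DESeq2 called 13 and 1. Of 16 stromal fibroblast markers 3 were higher and 0 lower, with a median of 0.81, against 8 and 1 at an unadjusted p below 0.05 and 5 and 0 by DESeq2. It was 1 of 16 higher without CONTROL_2, CONTROL_3 and CONTROL_4. The sums were 5678 to 20463 CPM in inseminated libraries and 2438 to 10202 CPM in controls. PDGFRA, a growth factor receptor of stromal cells, was at 1.55 ± 0.31 and TWIST2, a transcription factor, at 0.99 ± 0.23. ST14, PDGFRA and TWIST2 were not called with CONTROL_2, CONTROL_3 and CONTROL_4 left out, at -0.67, 1.59 and 0.96. Of 14 smooth muscle markers 0 were called by edgeR, 0 had an unadjusted p below 0.05 and 0 were called by DESeq2 or limma-voom. The sums ran from 5250 to 37732 CPM in inseminated libraries and from 1723 to 43057 CPM in controls. Of 15 endothelium and 14 motile cilium markers edgeR called 0 as well, with 2 of each list at an unadjusted p below 0.05. DESeq2 called 1 endothelium marker lower and 0 cilium markers, and limma-voom called 0 of both lists. No epithelial, stromal, muscle, endothelial or ciliary marker was at 0 in all libraries of a group. The part that these marker levels have in the differences of the 83 genes was not tested.

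Of 21 leukocyte markers 3 were higher and 1 lower, with a median of 0.09, and 0 were called without CONTROL_3. The sums were 87.2 to 259 CPM in inseminated libraries and 61.1 to 215 CPM in controls. JCHAIN, a chain of secreted immunoglobulins, was at 1.76 ± 0.54 (edgeR adjusted p = 0.0427) and lost its call in 12 of 20 fits that left out 1 library. With CONTROL_2, CONTROL_3 and CONTROL_4 left out JCHAIN was at 1.23 and not called (edgeR adjusted p = 0.430). CSF3R, a neutrophil receptor, was at -3.26 ± 0.71, but its controls were at 77.3 CPM in CONTROL_3 and 0.301 to 2.38 CPM elsewhere, and it was at 0.31 without that library. Of 13 nerve and glia markers 2 were higher, SNCAIP and DCX, and 1 was lower. DCX, a microtubule protein of migrating neurons, ranged from 2.78 to 8.96 CPM in inseminated sows, against 0.810 to 2.81 CPM in controls (1.86 ± 0.29, edgeR adjusted p = 0.000431).

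Immediate early and heat shock genes, which can change with tissue handling, were lower in 9 of 20 and higher in 0, with a median of -1.13. At an unadjusted p below 0.05 they were 14 and 0, by DESeq2 10 and 0, and by limma-voom 3 and 0. Without CONTROL_3 4 were lower, and without CONTROL_2, CONTROL_3 and CONTROL_4 0 were called. Their sums were 2397 to 3539 CPM in inseminated libraries and 3432 to 8435 CPM in controls, with CONTROL_3 the highest. JUNB, a transcription factor, ranged from 14.0 to 56.6 CPM in inseminated sows, against 32.7, 159, 562, 69.5 and 25.4 CPM in CONTROL_1 to CONTROL_5. It was called at -2.60 ± 0.47 (edgeR adjusted p = 0.00149), at -1.34 without CONTROL_3, and was at -0.02 without CONTROL_2, CONTROL_3 and CONTROL_4. IER3 and HSPA6 were at -5.48 ± 0.76 and -4.94 ± 0.62 with all controls. They were at -4.21 and -3.46 without CONTROL_3, and at 0.45 and 0.13, not called, without all 3. DNAJB1, a cochaperone, was at -1.24 ± 0.27 and -0.51 without CONTROL_3, where it was not called. GADD45A, which stress also induces, is in the set with every control above, and its relation to these genes was not tested.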

How the data were processed

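Messenger RNA of uterine tissue from 20 sows was sequenced in pairs on an Illumina NovaSeq, per the labels' protocols, and all samples carry 1 batch label. The submitters' processing notes name CASAVA, STAR 2.7.9a and Salmon 1.10.1. Neither build, annotation nor strandedness is given in the sources used here. Without the last, overlapping antisense genes cannot be told apart, and Salmon divides reads between near-identical genes, whose values are uncertain. The authors deposited unscaled estimated counts for each gene, 87.2% of them whole. Of 30369 rows, 24 name no gene, hold 0.0036% to 0.0133% of a library's counts and were left out. Of the 30345 gene rows, 30328 matched the RefSeq table of Sscrofa11.1, used for names only.

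Counts were rounded and scaled by TMM in edgeR 4.0.16 (R 4.3.3), and filterByExpr kept 17745 genes. The quasi-likelihood test was 2-sided, with 4 group means, 16 residual degrees of freedom and Benjamini-Hochberg adjustment. Inseminated is the mean of the FR1, FR2 and FR3 coefficients. SEs were obtained as the log2 change over the root of its F statistic. Nothing in the labels says more of the replicates than that they are separate sows, so p-values measure the spread between these sows. A control counted as outside when its CPM was above the highest or below the lowest inseminated library.

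The comparison, the 22 gene lists (429 members, 396 tested), the naming rule and the alternatives were chosen with earlier results of these data known. Per direction the rule named the 12 one-sided genes with the widest step and the 8 next smallest p, at a mean CPM of at least 1. It added 6 genes with controls on both sides, up to 6 one-sided genes with the smallest p among fractions, and up to 4 members per list with every separated member. The text also names genes outside this rule, picked after their values were seen: those listed in the text among the one-sided genes, and the called list members DKK3, DLL4, EIF4EBP2, HES1, LAMA2, LAMA5, NID1 and XBP1. The alternatives were 2 scalings, 2 filters, DESeq2 1.42.0, limma 3.58.1 (voom, also with a spread per group), 1 factor, an exact rank-sum test, 2 thresholds and left-out libraries. The fits were tested on simulated counts. No sequences are shown, and some genes that the rule named are not reported here.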

Additional observations from a re-analysis of the deposited data

Results flagged for a closer look

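Within each group of 5, a library was singled out when its gap to the nearest other exceeded Dixon's 95% limit. Chance singles out about 1 in 20 groups. Of 444 checks (111 named genes in 4 groups) 27 were singled out, 6 in FR1, 6 in FR2, 8 in FR3 and 7 in control.

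Among genes with every control below, FREM1 stood apart in FR2_1 at 12.8 CPM, GLI1 in FR3_4 at 35.8 CPM and PHF20 in FR2_2 at 41.7 CPM. TBC1D24 stood apart in FR3_4 at 63.8 CPM and RNF43 in FR1_4 at 34.5 CPM.

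Among genes with every control above, IGSF5 stood apart in FR1_1, listed at 0, and in CONTROL_3 at 66.9 CPM. SLC37A1 did so in FR3_4 at 35.2 CPM, PRR5 in FR3_3 at 21.1 CPM and EPCAM in CONTROL_3 at 553 CPM. GPR27 stood apart in FR2_5 at 14.6 CPM and in CONTROL_3 at 177 CPM.

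Among genes with controls on both sides, C1QTNF6 stood apart in FR2_4 at 5.15 CPM, and CRABP2 in FR1_3 at 3.35 CPM and FR3_3 at 7.25 CPM. MAML2 and TICAM1 did so in CONTROL_5, at 16.9 and 6.74 CPM, and EIF4A1 in FR3_3 at 449.6 CPM.

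Of the other list members, WNT4 stood apart in FR3_5 at 0.546 CPM, KRT7 in FR3_4 at 17.5 CPM and RRAS2 in FR1_4 at 11.6 CPM. EIF4EBP1 did so in FR1_2 at 13.5 CPM, CLDN7 in FR2_1 at 121 CPM, IER3 in FR1_3 at 0.936 CPM and DNAJB1 in FR2_1 at 50.3 CPM. CD14 and CSF3R did so in CONTROL_3, at 57.8 and 77.3 CPM.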

How the results depend on the processing

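The labels number the sows 1 to 20, each in 1 group, so there was no pairing of sows to use. The columns carry only a number within a group. The counts of calls (1965 in all, 510 higher, 1455 lower) stayed within 1.5 times under both scalings, both filters, the 1 factor fit and without FR1_1, FR1_4, FR2_3 and FR3_4 together. Without CONTROL_2, CONTROL_3 and CONTROL_4 they were 523, 142 and 381. DESeq2 called 952 higher. limma-voom called 1308 in all and 697 lower, and with a spread per group 260, 85 and 175. The exact rank-sum test called 334, 167 and 167. At an adjusted p below 0.01 the counts were 770, 127 and 643, and with a log2 change of at least 1 they were 1096, 281 and 815. For the difference among FR1, FR2 and FR3 DESeq2 called 26 genes and other settings at most 1.

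Leaving out 1 library at a time gave 988 to 2730 calls, 240 to 902 higher and 748 to 1828 lower. Without CONTROL_3 the counts were 988, 240 and 748. The higher calls were 836 without CONTROL_1 and 902 without CONTROL_5. For a difference among fractions the range was 0 to 1, the 1 call without FR1_4. Genes with every control below ranged from 48 to 238, every control above from 33 to 235, both sides from 184 to 353 and any side from 272 to 710. Without CONTROL_1 every control was below in 162 genes and above in 96, and without CONTROL_2 in 110 and 91. Those on both sides were 353 without CONTROL_2 and 337 without CONTROL_4, and those above were 60 without FR3_3. Any side gave 521, 554, 469 and 710 genes without CONTROL_1, CONTROL_2, CONTROL_4 and CONTROL_5. Without CONTROL_2, CONTROL_3 and CONTROL_4 the 4 counts were 462, 438, 1013 and 1913, and without the 4 inseminated libraries 199, 80, 425 and 704, where fewer libraries make the pattern easier to meet.

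Directions that turned were CD14 at 0.052 and CSF3R at 0.31 without CONTROL_3, and C1QTNF6 at 2.66 without CONTROL_4. Without CONTROL_2, CONTROL_3 and CONTROL_4 they were LAMA5 at 0.067, TLR4 at 1.49, CD14 at 0.11, EIF4E3 at 0.14, CSF3R at 1.31, IER3 at 0.45 and HSPA6 at 0.13. The cause was not tested. The named genes were tallied under the alternatives, except the exact rank-sum test, the stricter adjusted p and the log2 threshold. Most fits in this tally left out a single library. There 2994 results kept direction and side of the threshold, and 287 lost the call. A further 18 gained it, 15 that were never called changed sign and 10 turned. Of the 83 one-sided genes, 69 were still called at an adjusted p below 0.01. With an adjusted p below 0.05 and a log2 change of at least 1, 42 were, and by the exact rank-sum test all 83. The median of all genes ran from -0.09 to 0.03. Low genes such as SERPINF2 and WNT4 rest on few counts, and the 5 controls limit every value.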

Other observations

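Of 24 cell cycle and mitosis genes 0 were called by edgeR, DESeq2 or limma-voom or had an unadjusted p below 0.05. Their fitted changes had a median log2 of -0.80, but the mean of log2(CPM + 0.5) over the list gave no single direction. It was 2.06 to 5.05 in inseminated libraries, against 5.90 and 4.92 in CONTROL_1 and CONTROL_4 and 1.18 to 1.77 in CONTROL_2, CONTROL_3 and CONTROL_5, which lay below every inseminated library. AURKA, a mitotic kinase, had 2.45, 6.34 and 16.9 CPM at the lowest, median and highest inseminated library, against 30.1, 4.47, 7.04, 16.4 and 3.38 CPM in CONTROL_1 to CONTROL_5. RRM2, a subunit of ribonucleotide reductase, ranged from 1.34 to 20.6 CPM, against 36.1, 0.664, 2.22, 25.996 and 2.08 CPM. In both genes CONTROL_1 and CONTROL_4 were the highest controls. For AURKA CONTROL_1 alone lay outside the inseminated range. For RRM2 CONTROL_1 and CONTROL_4 lay above it and CONTROL_2 below it. The summed level of the list was 148 to 925 CPM in inseminated libraries, against 1674 CPM in CONTROL_1, 848 CPM in CONTROL_4 and at most 127 CPM in the remaining 3.

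Of 21 steroid receptors and targets 0 were called by edgeR, with 3 higher and 3 lower at an unadjusted p below 0.05. DESeq2 called 1 lower and limma-voom 2 higher. Of 3 mesothelium markers UPK3B alone was lower, at 0 to 0.296 CPM in inseminated sows, against 0.102 to 1.35 CPM in controls (-2.94 ± 0.93, edgeR adjusted p = 0.0472). Of 5 red blood cell markers 0 were called by edgeR, DESeq2 or limma-voom or had an unadjusted p below 0.05. WNT6, a ligand of the uterine epithelium, and PABPC1, the main cytoplasmic poly(A)-binding protein, were list members with controls on both sides. WNT6 ranged from 4.90 to 19.5 CPM in inseminated sows, against 4.19, 4.60, 1.24, 20.3 and 25.3 CPM in controls. PABPC1 ranged from 630 to 936 CPM, against 593, 574 and 467 CPM in CONTROL_2, CONTROL_3 and CONTROL_5 and 1710 and 1017 CPM in CONTROL_1 and CONTROL_4.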
